A study of Mus musculus with 4 samples.

Results

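The type 17 T cells of adult mouse back skin were read across 4 droplet libraries of single-cell RNA sequencing. A barcode counted as a type 17 T cell when it had at least 200 detected genes, at most 10% mitochondrial unique molecular identifiers (UMIs), at least 2 UMIs of the T cell receptor complex genes Cd3d, Cd3e and Cd3g together, and at least 2 UMIs of Cd163l1, Il17a and Il17f together. Barcodes with 5% or more of their UMIs from Col1a1 and Krt14, transcripts of fibroblasts and basal keratinocytes, were left out. This gave 413 cells of 22819 kept barcodes. The cells were thus chosen by their UMI values of these genes. The study used CD1 mice of 7 to 8 weeks, either controls or carrying the label Ovol1 null, and either left untreated or given imiquimod, with 1 library for each of the 4 groups. Treated mice had 62.5 mg of 5% imiquimod cream put once on the shaved back, and the skin cells went through FACS on their way to the 10x 3′ platform. The gate of the sort and the number of mice behind each library are not given in the sources used here. Values follow the order control untreated, control imiquimod, labelled-null untreated and labelled-null imiquimod unless stated otherwise. The word "labelled" is kept because Ovol1 UMIs could not check the genotype: the type 17 T cells held 2, 3, 2 and 22 Ovol1 UMIs, and 3′ tags do not show where the allele was changed.

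Type 17 T cells make interleukins IL-17A and IL-17F, which act on keratinocytes and fibroblasts to raise antimicrobial proteins and chemokines that draw neutrophils. In mouse skin the main sources are gamma delta T cells of the dermis, some CD4 T cells and, less often, CD8 T cells. The nuclear receptor RORα takes part in the programme, and the cytokines IL-23 and IL-1 drive it through Il23r and Il1r1. Cd163l1 encodes SCART1, a scavenger receptor of IL-17-producing gamma delta T cells, and CXCR6 marks T cells that stay in tissue. Imiquimod, an agonist of Toll-like receptor 7, is used to bring on a psoriasis-like inflammation in which these cells are prominent. OVOL1 is a zinc finger transcription repressor of epithelial cells.

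The rule rests on neighbouring cytokine genes, so their start regions are shown with those of the IL-23 receptor and of CCR6, the receptor that leads these cells to the skin. Il17a (ENSMUSG00000025929) lies at chr1:20730905-20734496 on the plus strand and Il17f (ENSMUSG00000041872) at chr1:20777146-20790617 on the minus strand, both in GENCODE M21 on GRCm38. The 150 bases before each RefSeq start (GRCm38.p6) are printed 5′ to 3′ on the strand of the gene, and capitals mark the letters AGGTCA on either strand, the core motif that RORα and many other nuclear receptors bind. Windows were chr1:20730755-20730904 for Il17a, chr1:20784271-20784420 for Il17f, chr6:67491856-67492005 for Il23r, chr17:8235893-8236042 for Ccr6 and chr7:140218117-140218266 for Cd163l1.
Il17a: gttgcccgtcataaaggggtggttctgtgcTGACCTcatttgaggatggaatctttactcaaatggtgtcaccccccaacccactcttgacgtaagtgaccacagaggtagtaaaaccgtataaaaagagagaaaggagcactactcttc
Il17f: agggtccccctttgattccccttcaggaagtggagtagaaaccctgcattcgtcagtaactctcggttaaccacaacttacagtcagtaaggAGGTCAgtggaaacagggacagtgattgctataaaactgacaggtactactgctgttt
Il23r: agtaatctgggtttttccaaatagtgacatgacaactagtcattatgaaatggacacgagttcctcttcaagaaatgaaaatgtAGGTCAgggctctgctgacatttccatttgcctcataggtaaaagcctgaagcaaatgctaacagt
Ccr6: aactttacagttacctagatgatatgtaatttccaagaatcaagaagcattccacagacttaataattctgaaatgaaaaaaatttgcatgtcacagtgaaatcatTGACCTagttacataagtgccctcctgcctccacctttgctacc
Cd163l1: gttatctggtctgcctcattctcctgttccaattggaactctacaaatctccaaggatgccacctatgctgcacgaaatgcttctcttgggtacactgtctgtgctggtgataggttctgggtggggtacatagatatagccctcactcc
The match began 120 bases before the start in Il17a, 58 in Il17f, 66 in Il23r and 44 in Ccr6, and Cd163l1 had none in this window. RefSeq lists another start of Ccr6, whose window held no match. The 5 genes shown are not a random choice: of 16 windows of 13 genes searched, 5 held a match, the fifth in Pdcd1, and 11 did not, among them those of Il22, Rora, Il1r1, Cxcr6, Areg, Il7r and Tnfrsf9. In GENCODE the Il17f window lies in an intron of a longer Il17f model, and the other 4 windows overlap no gene. Among 32851 RefSeq promoters, 8.58% hold AGGTCA or its complement within 150 bases before the start. A match is a description of the letters and shows no binding.

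Depth differed between the libraries and bears on every share of cells. The type 17 T cells had a median of 2666, 2915, 2414 and 4089 UMIs per cell, and their summed totals were 333650, 99743, 275587 and 1019012 UMIs. In the labelled-null imiquimod library the shallowest type 17 T cell had 3065 UMIs, against 1479, 1521 and 1452 in the others, and the shallowest of all kept barcodes there had 3039. Scrublet scores in the top 2% of a library fell on 2, 1, 2 and 8 of the type 17 T cells. No barcode sequence was shared between type 17 T cells of different libraries. Each group is 1 library, so differences between groups carry no test, and the 95% intervals given for levels, ratios and shares cover counting error only.

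Cxcr6, a marker of the label that the rule did not read, was at 1645, 1143, 1713 and 851 CPM (UMI counts scaled to a common total) in the summed type 17 T cells and at 1.05 to 2.93 CPM in barcodes without Ptprc or Cd3 UMIs, which stand for the non-leukocyte cells of each library. Of 8 general T cell markers, among them Cd2, Thy1, Lck, Lat, Cd247, Ptprc and Trat1, the libraries had 7, 6, 8 and 8 with UMIs. Cd4 was found in 6, 0, 0 and 1 cells and Cd8a or Cd8b1 in 2, 0, 2 and 1 cells. Of 10 NK cell markers 5, 2, 3 and 9 had UMIs, summed to 689, 692, 813 and 946 CPM against 1112, 1023, 951 and 375 CPM in other T cells, and Eomes was at 0 in all 4 libraries. Of 8 markers of innate lymphoid type 2 cells 5, 3, 2 and 7 had UMIs, summed to 171, 190.5, 149 and 77.5 CPM, and Il1rl1 was at 0 in all 4. Foxp3 and Tigit of regulatory T cells were at 0 in all but the labelled-null imiquimod cells. All 8 markers of epidermal gamma delta T cells had UMIs in each library. They summed to 1145, 652, 1549 and 1824 CPM against 3783, 4807, 2602 and 607 CPM in other T cells. Receptor constant genes of gamma delta and alpha beta T cells were not in the gene table under the symbols searched, so the cells were not assigned to a receptor class.

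Type 17 T cells made up a larger share of T cells in the labelled-null libraries. There were 104, 26, 104 and 179 of them among 325, 75, 191 and 263 T cells. The share was 32.0% (95% Clopper-Pearson interval 27.0 to 37.4) in control untreated skin, 34.7% (24.0 to 46.5) in control imiquimod skin, 54.5% (47.1 to 61.7) in labelled-null untreated skin and 68.1% (62.1 to 73.7) in labelled-null imiquimod skin. The intervals of both labelled-null libraries lay above those of both control libraries. After each cell was thinned to 1400 UMIs and the rule read again, the shares were 30.6%, 27.0%, 49.4% and 68.9%, with the same order except that control imiquimod came below control untreated. As a share of all kept barcodes the cells stood at 1.68%, 0.459%, 1.97% and 3.16%, which depends on the sort. The depth floor of the labelled-null imiquimod library stands beside its share, and its part in the share was not tested.

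**Figure D1:**
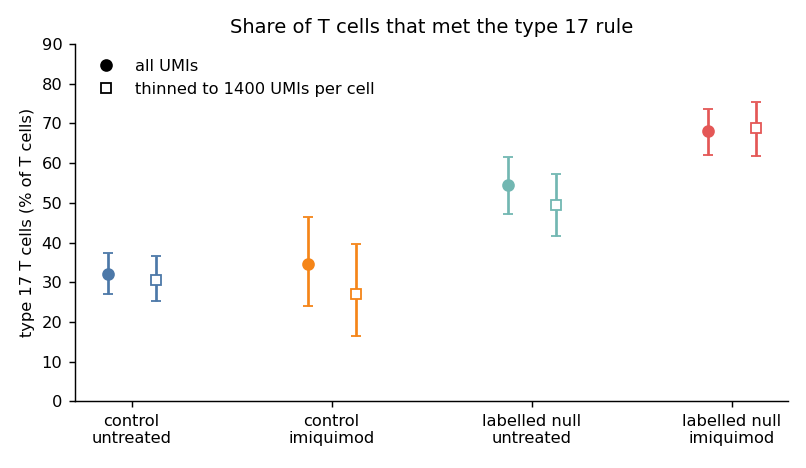
Share of T cells that met the type 17 rule in each library, in percent, with all UMIs (filled circles) and after thinning each cell to 1400 UMIs (open squares). Bars are 95% Clopper-Pearson intervals for counting error only, and both labelled-null libraries sit above both control libraries.

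Near the threshold, 35 cells had exactly 2 UMIs of Cd163l1, Il17a and Il17f, and 55 T cells with 1 such UMI fell just outside. A further 8 barcodes had at least 2 of these UMIs but only 1 Cd3 UMI, 37 had them with no Cd3 UMI, and 1 was removed by its Col1a1 and Krt14 share. The 386 T cells with 0 such UMIs, here called other T cells, served as the comparison class. They had a median of 2789.5, 2233, 2506.5 and 8127 UMIs per cell. In labelled-null imiquimod skin they were thus deeper than the type 17 T cells, at a median of 4089. Only 26 of the 65 there had under 2% of their UMIs from fibroblast and keratinocyte markers. Their summed keratinocyte markers, at 18260 CPM, lay above the 13749 CPM of non-leukocyte barcodes.

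Output of the cytokines was uneven from cell to cell. Il17a UMIs were present in 71, 20, 73 and 167 cells (68.3%, 76.9%, 70.2% and 93.3%), at a median of 3.5, 9.5, 3 and 17 UMIs per cell. The highest single cell held 70, 161, 119 and 221 Il17a UMIs. In control untreated cells the 10 cells richest in Il17a held 42.2% of its UMIs, and in labelled-null untreated cells the top 10 held 56.8%. A few cells thus carried much of the message in each library, beside many with a handful of UMIs. Non-leukocyte barcodes held an Il17a UMI in 1.3%, 1.16%, 2.18% and 7.1% at median depths of 5907, 4785.5, 5737 and 8488 UMIs. After thinning to 1400 UMIs the shares with Il17a were 63.5%, 73.1%, 62.5% and 82.7% in type 17 T cells and 0.311% to 0.983% in non-leukocyte barcodes.

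Both cytokines were seen together in 46, 16, 43 and 127 cells, or 232 of all 413. Il17f without Il17a was seen in 17 of the 104 control untreated cells and in 3 cells of each other library. Neither cytokine was detected in 16, 3, 28 and 9 cells, which met the rule through Cd163l1. Labelled-null untreated skin thus had the most cells that carried Cd163l1 without a cytokine UMI, and Cd163l1 was detected there in 57 of 104 cells, against 41 of 104, 7 of 26 and 69 of 179 elsewhere. Summed levels of Il17a were 3707, 7499, 3491 and 5259 CPM and those of Il17f 1469, 2917, 1179 and 2030 CPM. Cd163l1 stood at 438, 160.4, 795 and 158 CPM, and Cd3g at 2697, 1544, 4681 and 2388 CPM. Both cytokines were higher and Cd163l1 lower in each imiquimod library than in its untreated partner, as a description only, since these genes chose the cells. In control imiquimod cells 42.3% of Il17f UMIs came from 1 cell.

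**Figure D2:**
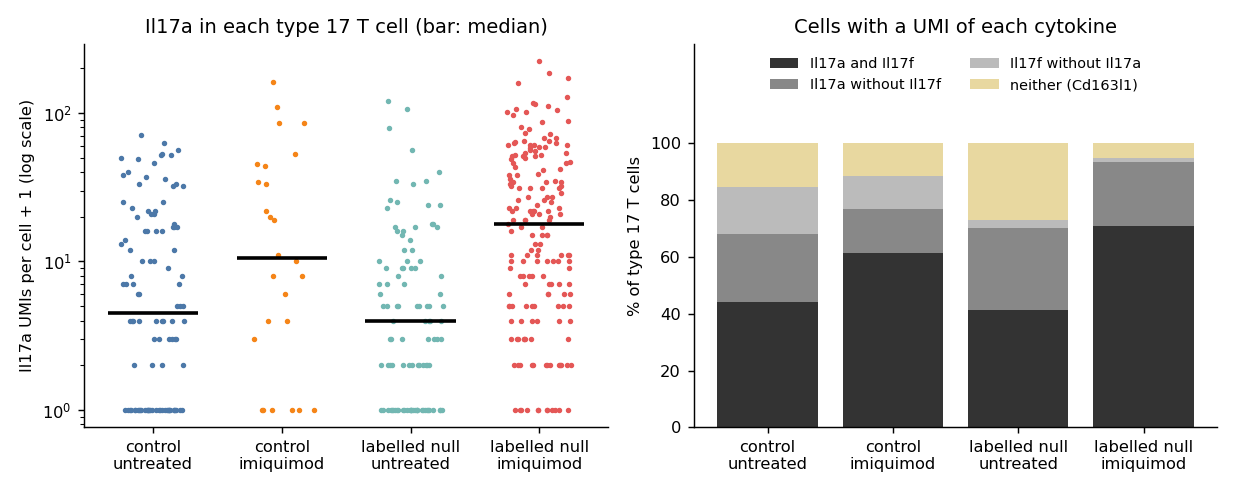
Left, Il17a UMIs plus 1 in every type 17 T cell by library on a log axis, with a bar at the median. Right, percent of cells with UMIs of both cytokines, of 1 of them, or of neither, in which case Cd163l1 met the rule. Medians were 3.5, 9.5, 3 and 17 UMIs from left to right before adding 1.

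Cells with a Cd163l1 UMI carried less cytokine message than those without. Il17a was at 1447 CPM (1253 to 1662) in the 41 control untreated cells with Cd163l1 and at 5307 CPM (4989 to 5640) in the 63 without. In labelled-null untreated skin the values were 2209 and 5146 CPM for 57 and 47 cells. With imiquimod they were 6692 and 7797 CPM in control skin, where 7 cells carried Cd163l1, and 4095 and 6066 CPM in labelled-null skin. Il17f showed the same direction in all 4 libraries, at 658 against 2042, 2417 against 3102, 650 against 1862 and 1364 against 2493 CPM. This contrast follows partly from the rule, because a cell without Cd163l1 UMIs could only enter through the cytokines, and it is given as a description. The costimulatory receptor Cd28 was at 36.2 CPM with and 199.6 CPM without Cd163l1 in control untreated cells, and none of the 7 cells with a Cd4 UMI held Cd163l1. Cells without Cd163l1 in control untreated skin thus included 6 cells with a Cd4 UMI, which held 6 Cd4 UMIs in all. Cd28 was at 0 with and 58.2 CPM without Cd163l1 in labelled-null untreated cells. With imiquimod it was at 0 on both sides in control cells and at 7.19 against 3.32 CPM in labelled-null cells.

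Against other T cells, the type 17 T cells had more mRNA of Blk, of the homing receptors Cxcr6 and Cxcr4, of Cd247 and of Pdcd1, and less of Tnfrsf4, Ctla4 and Tnfrsf18, 3 of the 5 tested markers of regulatory T cells. UMIs were summed per library and class and fitted with edgeR's quasi-likelihood test with library as a term, leaving out the rule genes. Its p-values measure only the spread between these 4 libraries, which come from 4 different groups. Of 3867 genes tested, 103 (2.66%) were higher and 90 (2.33%) were lower at an adjusted p under 0.05, and 100 and 83 of these had the same sign in 4 of 4 libraries. The calls rested on few libraries: without the labelled-null untreated library 20 genes were called, 14 of them among the 193, and without the labelled-null imiquimod library 98 were. Of 55 called genes named here, Blk, Cd247, Cxcr4, Cxcr6, Junb, Pdcd1, Ldlrad4, Tyrobp and Napsa were called whichever library was left out. Another 15, among them Tnfrsf18, Rora, Ltb, Itgal, Il22 and Cd28, were called in 1 such fit. Ctla4 was called in 2 of 4 such fits and Tnfrsf4 in 3 of 4. Over all 13 alternatives Tnfrsf18 was called in 7. Itgb7 and Ifngr1 were called in 0 of 4 and Cxcl16 in 0 of the 1 that tested it. Without cells that had 2% or more of their UMIs from fibroblast and keratinocyte markers 85 genes were called, and 20 of the 48 named calls still tested were lost. Other T cells carried more such RNA, with summed keratinocyte markers at 2643, 10387, 11173 and 18260 CPM against 1577, 7479, 1586 and 6108 CPM in type 17 T cells. Summed fibroblast markers were at 14403, 9359, 23856 and 14368 against 11509, 4492, 7696 and 8734 CPM, and summed T cell markers in labelled-null imiquimod were at 717 against 1762 CPM. Summed macrophage and dendritic cell markers were at 6775, 754, 2737 and 6281 CPM in other T cells against 312, 1895, 374 and 508 CPM, with the order turned in control imiquimod, and 1 of the 5 tested, Tyrobp, was lower, with a list median of -2.92. Without cells of 5 or more class II UMIs 202 genes were called, and 5 of 54 named calls were lost, Tyrobp among them (adjusted p = 0.165 by edgeR). The part of this RNA in the calls was not tested beyond these alternatives.

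Among 12 tested regulators of the type 17 programme, 3 were higher and none was lower, and the list's median log2 fold change was 0.82 against -0.02 over all genes tested. Blk, a Src family kinase needed by IL-17-producing gamma delta T cells, was at 299.7, 170.4, 483 and 204 CPM against 30.2, 37.4, 52.7 and 15.9 CPM in other T cells. Its log2 fold change was 3.13 ± 0.25 (SE) with an adjusted p of 0.00117 (edgeR's quasi-likelihood test, Benjamini-Hochberg). Every library showed it several-fold higher. Rora rose by 1.48 ± 0.33 on the log2 scale (adjusted p = 0.0389 by edgeR, higher in 4 of 4). Without the cells of 2% or more fibroblast and keratinocyte UMIs, Rora was not called (adjusted p = 0.128 by edgeR), and Blk was. Maf, a transcription factor of IL-17-producing T cells, was higher in 4 of 4 libraries with a log2 fold change of 0.89 that did not pass (adjusted p = 0.0736 by edgeR).

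Tissue retention and homing genes gave 7 higher and 0 lower of 16 tested. Cxcr6 had a log2 fold change of 2.25 ± 0.28 (adjusted p = 0.00785 by edgeR), from 1645, 1143, 1713 and 851 CPM against 538, 318, 316 and 73.9 CPM. Cxcr4, the receptor of CXCL12, was higher by 1.83, the residency gene Cd69 by 1.03, the oxysterol receptor Gpr183 by 1.17 and Rgs1, which dampens chemokine receptor signals, by 1.20. The integrins Itgal and Itgb7 rose by 1.09 and 0.96. Without the cells of 2% or more fibroblast and keratinocyte UMIs, 5 of the 7 were no longer called, with adjusted p-values by edgeR of 0.366 for Cd69, 0.152 for Gpr183, 0.108 for Rgs1, 0.442 for Itgal and 0.585 for Itgb7, and Cxcr6 and Cxcr4 stayed called. Ccr6 was higher in 4 of 4 libraries by 1.30 but did not pass (adjusted p = 0.0527 by edgeR).

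Receptor signalling genes split. Cd247, the zeta chain of the T cell receptor complex, was at 447, 291, 874 and 374 CPM against 127, 56.1, 176 and 87 CPM in other T cells. Its log2 fold change was 2.03 ± 0.19 (adjusted p = 0.00328 by edgeR). The kinase Zap70 and the adaptor Lat rose by 1.79 and 1.36, while Cd28 was lower by a log2 fold change of -1.97. These 3 higher and 1 lower were the calls among 13 tested genes of the list, whose median was -0.56. Without the cells of 2% or more fibroblast and keratinocyte UMIs, Lat was not called (adjusted p = 0.0725 by edgeR). The other 3 stayed called. In costimulation and checkpoint genes, Pdcd1, which encodes the inhibitory receptor PD-1, was the 1 higher of 9. It was at 105, 251, 298 and 308 CPM against 34.1, 37.4, 23.4 and 20.3 CPM, a log2 fold change of 2.88 ± 0.35 (adjusted p = 0.00785 by edgeR). PD-1 message was thus 3 times or more above that of other T cells in each library. The 4 lower genes were Tnfrsf4 at -2.67, Ctla4 at -2.07, Cd81 at -1.46 and Tnfrsf18 at -1.27. Tnfrsf4, Ctla4 and Tnfrsf18 encode OX40, CTLA-4 and GITR, which regulatory T cells carry at high level, and they made up 3 of 5 tested regulatory T cell markers. With 1 library left out, they were called in 3, 2 and 1 of 4 fits.

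Cytokine genes other than those of the rule gave 3 higher of 13 tested. Tnf was at 119.9, 110.3, 192 and 63.8 CPM against 65.6, 49.9, 26.3 and 21.7 CPM, a log2 fold change of 1.47 ± 0.32 (adjusted p = 0.0383 by edgeR). Ltb, which encodes lymphotoxin beta, rose by 1.28, and none of the 3 was called without the cells of 2% or more fibroblast and keratinocyte UMIs. Il22, the partner cytokine that drives keratinocyte growth, had a log2 fold change of 3.12 ± 0.75 (adjusted p = 0.048 by edgeR) but rested on single cells. It was found in 6, 0, 3 and 3 type 17 T cells, and 1 cell held 83.8%, 78.3% and 95.9% of its UMIs in the 3 libraries that had any. Among neuropeptide and hormone receptors the 1 call of 5 was Ramp1, the co-receptor for the nerve peptide CGRP, higher by 1.76. The receptors for activating cytokines gave no higher gene of 13, with Ifngr1 the 1 lower at -0.81, and Il23r had too few UMIs to be tested.

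Early response genes gave 7 higher of 23 and none lower. Junb, a subunit of the AP-1 factor, was at 6441, 4351, 6212 and 4865 CPM against 3485, 1939, 2011 and 1070 CPM, with a log2 fold change of 1.38 ± 0.18 (adjusted p = 0.00785 by edgeR). The others were Nfkbid at 1.64, Nr4a1 at 1.57, Tnfaip3 at 1.30, Nfkbia and Fosl2 at 1.29 and Jund at 0.70. Without the cells of 2% or more fibroblast and keratinocyte UMIs, Nfkbid and Jund were no longer called. Their adjusted p-values by edgeR were 0.0596 and 0.0997, and the other 5 stayed called. Nfkbid, Nfkbia and Tnfaip3 encode inhibitors of NF-κB signalling that the pathway itself induces.

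Outside the lists, large rises seen in 4 of 4 libraries included Klrc1 at 2.45, which encodes the lectin receptor NKG2A, Bcl2a1a at 2.39 and Furin at 2.37, a protease that matures precursor proteins. Ldlrad4 followed at 2.24, the phosphatase Dusp4 at 2.20, the acid-sensing receptor Gpr65 at 2.09, the transporter Slc16a6 at 2.01 and 5830411N06Rik at 1.98. Bcl2a1a has near-identical copies that the counting could split, so its level is uncertain. Klrk1, which encodes the activating receptor NKG2D, rose by 1.5 as the 1 call of 3 tested markers of NK cells. Large falls seen in 4 of 4 libraries were Serpinb2 at -2.91, Napsa at -2.72, Tyrobp at -2.43, Cxcl16 at -2.42, Pglyrp1 at -2.15 and Fcgbp at -2.05. Tyrobp, an adaptor of myeloid and NK cells, and Cd28, Tnfrsf4 and Ctla4 belong to leukocytes, whereas Trp63 at -2.17, Krt5 at -2.09, Dsc3 at -2.03, Krt10 at -1.58 and Perp at -1.55 are keratinocyte genes. Fibroblast markers were lower too, with Dcn at -1.20, Lum at -1.08, Col1a2 at -1.04 and Col3a1 at -0.79. Ly6a was the 1 interferon-stimulated gene called, at -0.92. No gene was called among 12 of lipid handling and glycolysis, 11 of the cell cycle, 7 other lineage transcription factors, 7 markers of epidermal gamma delta T cells, 2 of CD8 T cells or 1 of innate lymphoid type 2 cells. The epidermal list had a median log2 fold change of -0.80, and its sum was below that of other T cells outside labelled-null imiquimod skin. The 1 tested marker of the label, Cxcr6, was called, as were 2 of 7 general T cell markers.

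**Figure D3:**
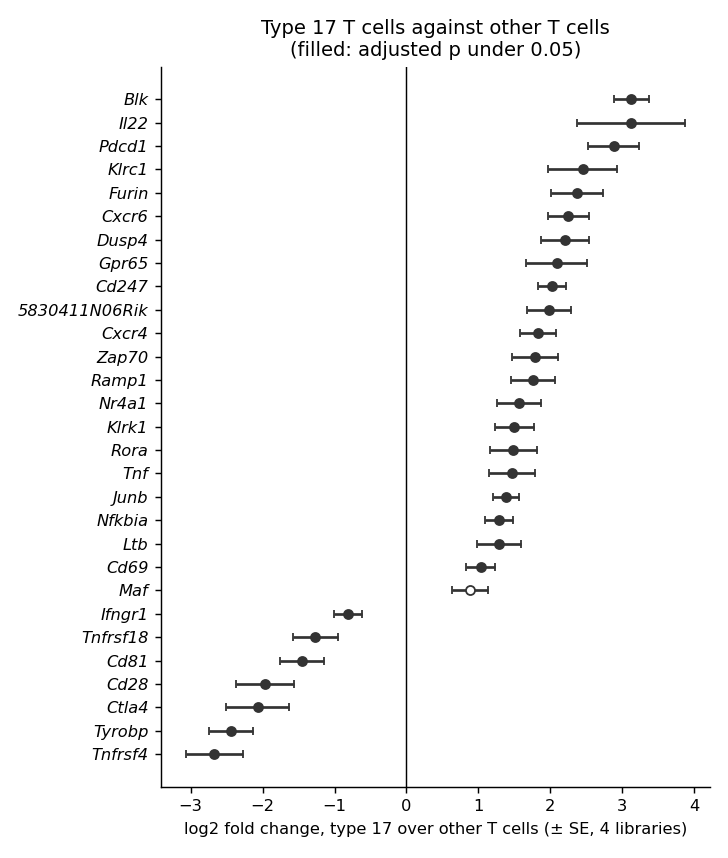
Log2 fold change (± SE) of named genes in type 17 T cells over other T cells, from UMI sums of 4 libraries. Filled points passed an adjusted p of 0.05 in edgeR, and Maf (open) did not. Blk, Il22 and Pdcd1 sit farthest to the right and Tnfrsf4 farthest to the left.

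Imiquimod libraries were compared with untreated ones within each genotype label. A gene counted as measured when both sums together held 20 UMIs or more, and it was called at a ratio of CPM of at least 2 with its interval on one side of 1. In control skin 2649 genes were measured, of which 158 (5.96%) were called higher and 180 (6.8%) lower. In labelled-null skin 621 of 5977 (10.4%) were higher and 411 (6.88%) lower. With TMM scaling the control split changed from 46.7% to 32.5% higher, with the median of all genes shifted by -0.16 on the log2 scale, and the labelled-null split from 60.2% to 66.1%. The comparisons share no library, and 79 genes were higher in both, which is 50% of the control and 12.7% of the labelled-null list. The 58 lower in both were 32.2% and 14.1% of the lists. The 26 control imiquimod cells limit the first comparison.

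With imiquimod the type 17 T cells of both labels had more mRNA of Tnfrsf9, Il2rb, Irf4, Areg and Rgs16 and less of Il7r, Il18r1, Tcf7, Ccr2 and Actn2. Tnfrsf9 encodes the costimulatory receptor 4-1BB, which T cells put up after stimulation. It was at 24, 1053, 3.63 and 541 CPM, found in 6, 12, 1 and 114 cells. Both imiquimod libraries stood far above both untreated ones, in thinned cells too, at 38.5% and 46.9% of cells with a UMI against 2.88% and 0.962%. The ratio was 43.9 (21.5 to 104) in control skin and 149 (26.6 to 5896) in labelled-null skin, the latter against 1 UMI. Of the costimulation and checkpoint list, 2 rose and 3 fell of 8 measured in control skin, and 4 rose and 1 fell of 11 in labelled-null skin. Havcr2, which encodes the inhibitory receptor TIM-3, was at 5.99, 80.2, 0 and 109 CPM, at least 10.0-fold higher in labelled-null skin and short of 20 UMIs in control skin. Pdcd1 was 2.39-fold higher (1.37 to 4.11) in control skin and 1.04-fold (0.81 to 1.34) in labelled-null skin, where the untreated level was already 298 CPM. The inducible costimulator Icos, at 575.5, 190.5, 287 and 236 CPM, was 3.02-fold lower (1.88 to 5.13) in control skin and not called in labelled-null skin. Lag3 and Cd81 completed the 4 higher ones in labelled-null skin, and Cd96 was called lower in both.

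Cytokine receptors moved in both directions. Il7r, the receptor of the survival cytokine IL-7, was at 572, 190.5, 421 and 154 CPM in 74, 13, 71 and 84 cells. Both untreated libraries were the higher ones, by 3.01-fold (1.87 to 5.1) in control and 2.73-fold (2.13 to 3.5) in labelled-null skin. Il18r1, at 141, 30.1, 116 and 16.7 CPM, was 4.68-fold (1.51 to 23.5) and 6.96-fold (3.75 to 13.4) lower with imiquimod. Il2rb, the beta chain for IL-2 and IL-15, went the other way, at 59.9, 190.5, 61.7 and 279 CPM, or 3.18-fold (1.6 to 6.27) and 4.52-fold (2.77 to 7.87) higher. The receptors of the type 17 pathway itself were sparse. Il23r was at 45, 30.1, 79.8 and 20.6 CPM and Il1r1 at 39, 10.0, 50.8 and 13.7 CPM, lower with imiquimod by 3.87-fold (2.03 to 7.4) and 3.7-fold (1.63 to 8.37) in labelled-null skin and with too few UMIs to be measured in control skin. In all, 2 receptors rose and 3 fell of 10 measured in control skin, and 3 rose and 4 fell of 17 in labelled-null skin. In control skin Il2ra was 2.51-fold higher (1.08 to 5.65) and Tnfrsf25 was the other gene called lower.

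Among transcription factors, Irf4 and Stat3 were higher and Tcf7 and Bcl11b lower with imiquimod under both labels. Irf4, which follows receptor signal strength, was at 27, 190.5, 21.8 and 71.6 CPM, 7.06-fold (3.04 to 17.7) and 3.29-fold (1.44 to 9.26) higher. Stat3, which passes on the IL-23 and IL-6 signals, was at 59.9, 190.5, 61.7 and 184 CPM, 3.18-fold (1.6 to 6.27) and 2.99-fold (1.82 to 5.24) higher. Stat3 is expressed in many skin cells and was at 63.3, 72.8, 60.9 and 116 CPM in non-leukocyte barcodes. These 2 were the calls among 12 measured type 17 regulators in control skin, where none fell. In labelled-null skin 4 of 14 rose, with Batf at 2.84-fold (1.64 to 5.32) and Bhlhe40, and 3 fell. Among the lower were Blk at 2.36-fold (1.89 to 2.95) and Zbtb16, which encodes PLZF of innate-like T cells, at 6.87-fold (3.46 to 14.2). In control skin Blk was 1.76-fold lower (1.05 to 3.14), which was not called. Tcf7, the factor TCF-1 of resting and memory T cells, was at 102, 20.1, 90.7 and 34.3 CPM, and Bcl11b, which keeps T cell identity, at 213, 70.2, 221 and 85.4 CPM. They were 5.08-fold (1.3 to 43.7) and 3.03-fold (1.4 to 7.81) lower in control skin, and 2.64-fold (1.52 to 4.54) and 2.59-fold (1.84 to 3.64) lower in labelled-null skin. Id3, which non-leukocyte barcodes also hold at 233 to 456 CPM, was called higher in both. Of other lineage factors, 1 rose and 2 fell of 7 in control skin and 1 rose and 3 fell of 8 in labelled-null skin, where Klf2 was the third lower gene.

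**Figure D4:**
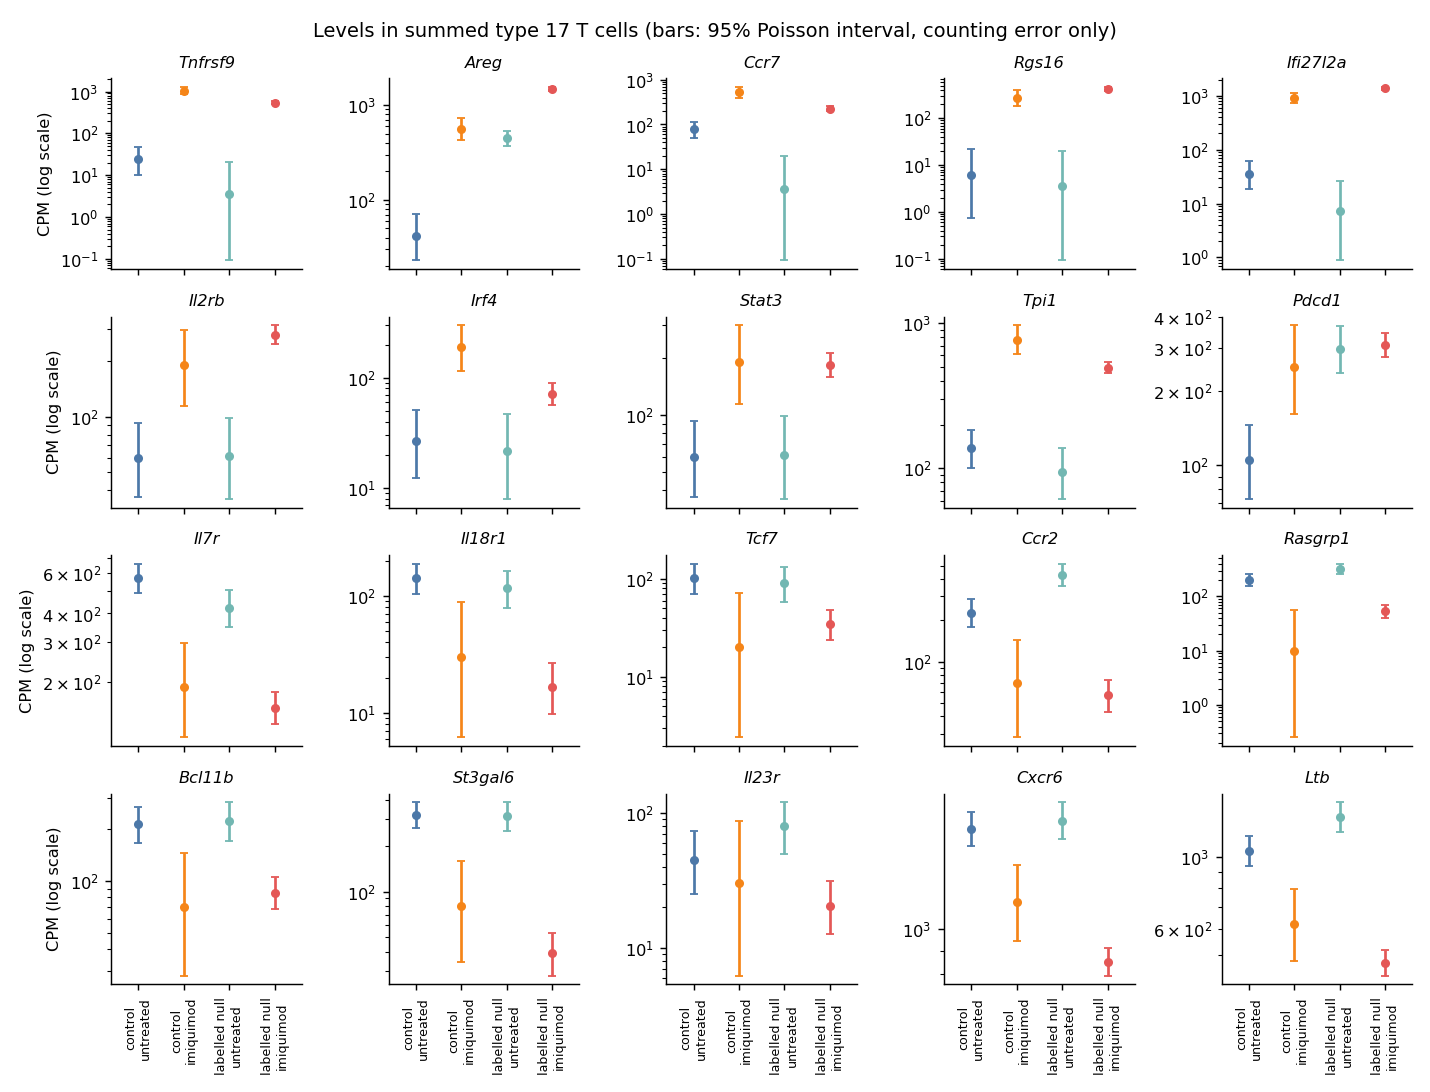
CPM of 20 genes in the summed type 17 T cells of each library, on log axes that differ between panels, with 95% Poisson intervals for counting error only. The first 2 rows hold genes higher in both imiquimod libraries except Pdcd1, and the last 2 rows genes whose levels were lower with imiquimod, not all of them called in control skin.

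Among secreted factors, Areg was higher with imiquimod under both labels, and Ltb and Tnf were lower in labelled-null skin. Areg encodes amphiregulin, a ligand of the EGF receptor that drives epithelial repair. It was at 42, 561, 446 and 1473 CPM in 7, 8, 5 and 70 cells, and 76.4% of the labelled-null untreated UMIs came from 1 cell. Cells with Areg were therefore rare in both untreated libraries and frequent with imiquimod, at 19.2% and 28.5% of thinned cells against 4.81% and 1.92%. The ratio was 13.4 (7.35 to 26) in control and 3.3 (2.74 to 4) in labelled-null skin. Ltb, at 1040.0, 622, 1328 and 472 CPM, was 2.81-fold lower (2.45 to 3.23) in labelled-null skin, as was Tnf at 3.01-fold (2.06 to 4.4). Both were below the call in control skin, at 1.67-fold (1.27 to 2.23) and 1.09-fold (0.547 to 2.35) lower. Il10, which encodes an inhibitory cytokine, was at 33.4 CPM in labelled-null imiquimod cells, found in 13 of 179, against 0, 10.0 and 0 CPM. Il22 fell in control skin from 191 UMIs to 0, at least 19-fold, but 83.8% of the 191 were in 1 cell, and it was not called in labelled-null skin. Gzmc, a granzyme, was likewise a matter of single cells, with 76.7% to 100% of its UMIs in 1 cell in each library. Cytokine genes in all gave 1 higher and 5 lower of 12 measured in control skin and 7 higher and 3 lower of 19 in labelled-null skin. The lower ones in control skin were Il22, Gzmc, Tnfsf8, Tnfsf11 and Xcl1.

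**Figure D5:**
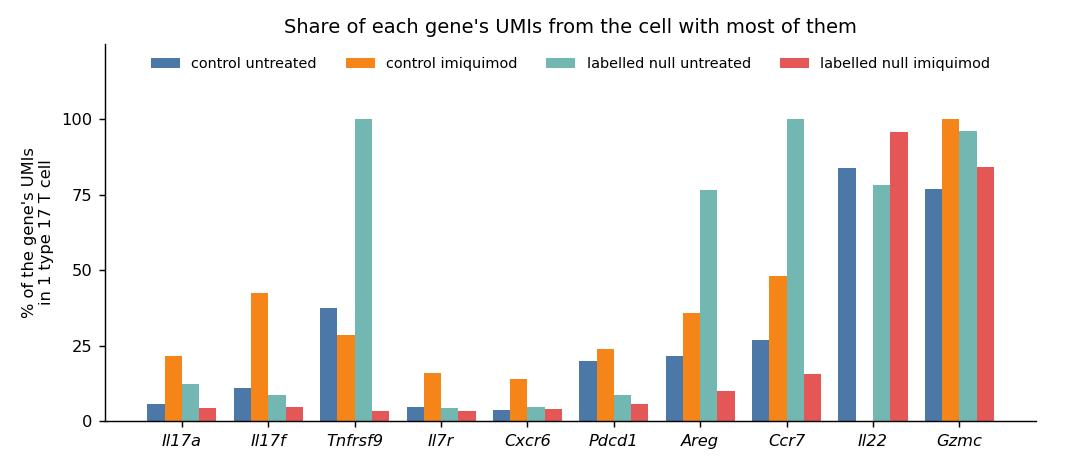
Percent of a gene's UMIs in the type 17 T cells of a library that came from the 1 cell with most of them, for 10 genes. For Il22 and Gzmc 1 cell held 76.7% or more in every library that had UMIs, in labelled-null untreated skin 1 cell held 76.4% for Areg and the 1 UMI of Ccr7, and for Il17a 1 cell held at most 21.5%.

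Among homing receptors, Ccr2 was lower and Ccr7 higher with imiquimod under both labels. Ccr2, which follows CCL2 into inflamed tissue, was at 228, 70.2, 432 and 56.9 CPM. It was lower with imiquimod by 3.25-fold (1.5 to 8.35) in control and 7.59-fold (5.5 to 10.6) in labelled-null skin. Ccr7, which leads cells to lymphatics, was at 77.9, 521, 3.63 and 226 CPM in 11, 4, 1 and 34 cells, or 6.69-fold (4.1 to 11.2) and 62.2-fold (11.1 to 2467) higher. In control imiquimod skin it was few cells with many UMIs, since 48.1% came from 1 cell, and in labelled-null untreated skin there was 1 UMI. Cxcr6 was 2.01-fold lower (1.8 to 2.25) in labelled-null skin and 1.44-fold lower (1.17 to 1.78), not called, in control skin. Ccr10, a receptor for skin chemokines, fell by 20.7-fold (7.89 to 68.7) in labelled-null skin, from 102 to 4.91 CPM. The list gave 2 higher and 2 lower of 15 in control skin and 2 higher and 6 lower of 16 in labelled-null skin, and Cd9, found in over 95% of non-leukocyte barcodes, was the other gene higher in both.

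Genes with the largest ratios included several outside the lists. Rgs16, a brake on chemokine receptor signals, was at 5.99, 271, 3.63 and 421 CPM in 2, 8, 1 and 96 cells. Its ratio was 45.2 (11.3 to 392) in control skin against 2 UMIs and 116 (20.7 to 4593) in labelled-null skin against 1. Actn2, which encodes a sarcomere actinin, marked untreated cells, at 297, 10.0, 174 and 4.91 CPM in 56, 1, 34 and 5 cells. Non-leukocyte barcodes held it in at most 0.3%, and RNA of other leukocytes as a source was not tested. It was 29.6-fold lower (5.19 to 1181) with imiquimod in control skin, on 1 UMI, and 35.5-fold lower (14.2 to 114) in labelled-null skin. Rasgrp1, which couples the T cell receptor to Ras, was at 204, 10.0, 323 and 53 CPM. It was 20.3-fold (3.53 to 815) and 6.09-fold (4.3 to 8.71) lower. Ctsw, a protease of cytotoxic and epidermal gamma delta T cells, was called lower in both. Ramp3 was lower by 3.2-fold (1.67 to 6.86) and 2.04-fold (1.14 to 3.57), St3gal6, Zp1 and Zdhhc2 were among the largest falls in labelled-null skin, and Ctla2a and Tnfsf8 in control skin. Ctla2a, a protease inhibitor gene, was at 950 CPM before and 60.2 CPM after imiquimod in control cells but at 156 and 1032 CPM in labelled-null cells, with 52.4% and 69.8% of the untreated UMIs in 1 cell, and the difference between the labels was not tested. Dusp4 and Gpr65, both higher in type 17 than in other T cells, were 3.14-fold and 3.69-fold higher with imiquimod in control skin and 2.11-fold and 3.08-fold higher in labelled-null skin. Others named by size came from 1 cell or a few: Fabp4 (97.1% of UMIs in 1 cell), Cldn5 (1 cell) and Cxcl2 (3 cells) in control imiquimod skin, and Ccl21a (1 cell, a symbol that more than 1 gene entry shares) and Scd1 (94.9% in 1 cell) in labelled-null imiquimod skin.

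Receptor signalling genes were called in different directions. In control skin Cd2 was 6.38-fold lower (2.09 to 31.7), and Lck and Cd28 had 0 UMIs with imiquimod, at least 4.78-fold and 4.38-fold lower. These 3 were the calls of 11 measured. In labelled-null skin 3 were higher and 2 lower of 11, with list medians of -0.74 in control and 0.20 in labelled-null skin. Cd247 was 2.34-fold (1.98 to 2.76) lower there, while Thy1, Cd6 and Fcer1g were higher, with Thy1 at 2.25-fold (1.78 to 2.86). In labelled-null non-leukocyte barcodes the summed T cell markers, Thy1 among them, were at 227 CPM untreated and 341 CPM with imiquimod. No gene of the receptor signalling list was called in the same direction under both labels. NF-κB feedback genes gave 1 higher and 2 lower of 21 in control skin, Rel against Fos and Jun. In labelled-null skin 2 rose and 4 fell of 24, with Dusp2 at 4.99-fold higher (3.8 to 6.67) and Nfkbid at 3.31-fold (2.4 to 4.56), Tnfaip3 at 2.09-fold (1.78 to 2.45) and Nr4a3 among the lower.

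Tpi1 and most measured interferon-stimulated genes were higher under both labels, and non-leukocyte barcodes showed the same direction. Tpi1, a glycolytic enzyme, was at 138, 772, 94.3 and 495 CPM, 5.6-fold (3.84 to 8.25) and 5.24-fold (3.54 to 8.1) higher. Non-leukocyte barcodes had 132, 230, 153 and 435 CPM of Tpi1. In control skin Eno1 and Pgk1 were also higher, and the list gave 4 higher and 0 lower of 11 there and 7 higher and 1 lower of 17 in labelled-null skin, where Fabp5, with 56.3% of its imiquimod UMIs in 1 cell, and Scd1 were among the higher. Among interferon-stimulated genes 5 of 7 were higher in control skin and 12 of 18 in labelled-null skin, with none lower and list medians of 2.70 and 3.53 on the log2 scale. Ifi27l2a was at 36, 902, 7.26 and 1379 CPM and Bst2, which tethers virus particles, at 42, 521, 36.3 and 584 CPM. Bst2 was 12.4-fold (6.79 to 24.3) and 16.1-fold (8.69 to 33.7) higher. In non-leukocyte barcodes Ifi27l2a was at 20.1, 1282, 11.2 and 846 CPM and Bst2 at 91, 565, 54 and 910 CPM, so these transcripts moved in the same direction outside the T cells. Zbp1 and Ly6a were called higher in both, and Isg15 and Irf7 in labelled-null skin. The part of RNA from other cells in these values was not tested.

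RNA of other cell types moved with treatment in these sums. Of 7 keratinocyte markers, 6 were higher with imiquimod under each label, with summed levels of 1577, 7479, 1586 and 6108 CPM. Fibroblast markers summed to 11509, 4492, 7696 and 8734 CPM. Neutrophil markers summed to 0, 20.1, 0 and 2930 CPM, all but a trace from S100a8 and S100a9, while Cxcr2 and Retnlg were at 0 in all 4 libraries and Csf3r had at most 1 CPM. Non-leukocyte barcodes of the labelled-null imiquimod library held 4899 CPM of S100a8 against 1847 in type 17 T cells. MHC class II genes stood out in control imiquimod skin, with Cd74 at 1093 CPM against 102, 134 and 209 elsewhere and 55% of its UMIs in 1 cell. H2-Aa and H2-Ab1 were called higher there with it. Of the 12 macrophage and dendritic cell markers, C1qa, C1qc, H2-Eb1, Csf1r and Cd14 were at 0 in those cells, and the list summed to 312, 1895, 374 and 508 CPM. Mast cell, B cell and endothelial markers summed to at most 2.94, 24 and 80.2 CPM. Their part in the imiquimod differences was not tested, and leaving out cells with 2% or more fibroblast and keratinocyte UMIs kept 48 of 52 named calls in control and 56 of 64 in labelled-null skin.

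Between genotype labels, untreated type 17 T cells differed in fewer genes. Of 3501 measured, 97 (2.77%) were higher and 106 (3.03%) lower in labelled-null than in control cells. Il17a and Il17f, whose UMIs chose the cells, were at 3491 against 3707 CPM and at 1179 against 1469 CPM, given as a description. Pdcd1 was 2.84-fold higher (1.89 to 4.34), in 34 against 14 cells. Zbtb16 was 2.62-fold (1.28 to 5.71), Ccr10 3.77-fold (1.73 to 9.07) and the leukotriene receptor Ltb4r1 2.35-fold (1.51 to 3.71) higher. Receptor signalling gave 0 higher and 3 lower of 11 measured, with a list median of -0.08 on the log2 scale, and Cd247 was at 874 against 447 CPM. Cd28 was 5.19-fold (2.32 to 13.7), Lck 4.96-fold (2.32 to 12.1), Cd2 2.4-fold (1.46 to 4.1), Cd40lg 5.23-fold (1.54 to 27.6) and Icos 2.01-fold (1.54 to 2.64) lower. Bhlhe40, which supports cytokine output, was at 98 against 419.6 CPM, 4.28-fold lower (2.82 to 6.73), and the calcitonin receptor partner Ramp3 4.21-fold lower (2.62 to 7.08). The 6 largest rises were 1700097N02Rik, Areg (76.4% from 1 cell), Ccl4 (80% from 1 cell), AY036118, Camk2n1 and Eif3j1. The largest falls were Ccr7 on 1 UMI, Ms4a4b at 11.3-fold (3.6 to 57), Hist1h2bc, Tnfrsf4, Pmm1 and Ms4a6b at 7.27-fold (2.89 to 23.5).

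Other lower genes were Cxcr4, Ccr4, Tnfsf8, Tnfsf11, Il22, Tnfrsf18 and Cd81, and Gzmc was higher. For Il22 and Gzmc most UMIs came from 1 cell in each of these libraries. By list, costimulation gave 1 higher and 4 lower of 7, cytokines 3 and 4 of 15, homing 1 and 3 of 17 and type 17 regulators 1 and 1 of 13. Receptors for activating cytokines gave no call of 15, other lineage factors none of 7 and the cell cycle none of 9. Of the cells compared, 57 of 104 labelled-null and 41 of 104 control cells had a Cd163l1 UMI and 0 against 6 had a Cd4 UMI, and the part of this makeup in the differences was not tested.

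With imiquimod, 222 of 5521 genes (4.02%) were higher and 183 (3.31%) lower in labelled-null than in control cells. TMM scaling shifted the median of all genes by 0.21 on the log2 scale and moved the split from 54.8% to 75.9% higher. Il17a and Il17f, which chose the cells, were at 5259 against 7499 CPM and at 2030 against 2917 CPM, again a description only. Cd7, a receptor of T and NK cells, was at 578 against 40.1 CPM, 14.4-fold higher (5.6 to 53.1), and Nkg7, a granule protein, at 378 against 0 CPM, at least 12.6-fold higher. Labelled-null cells with these genes numbered 57 and 49 of 179, against 3 and 0 of 26. Areg was 2.62-fold (2.01 to 3.49), Dusp2 3.31-fold (2.3 to 4.93), Batf 2.88-fold (1.21 to 8.99) and Thy1 3.51-fold (2.23 to 5.86) higher. The 8 T cell markers, Thy1 among them, also summed higher in labelled-null non-leukocyte barcodes with imiquimod, at 341 against 103.5 CPM. The part of RNA from other cells in the Thy1 ratio was not tested. Irf4 was 2.66-fold (1.52 to 4.45), Ccr7 2.31-fold (1.68 to 3.13), Rel 2.55-fold (1.52 to 4.11), Ramp3 2.69-fold (1.19 to 5.5) and Pgk1 3.99-fold (2.41 to 6.43) lower. Tnfrsf9 was 1.95-fold lower (1.56 to 2.4), just under the call. Receptor signalling gave 5 higher and 2 lower of 11 measured, among them Cd2, Cd6 and Lck higher, the last at least 1.63-fold, cytokines 5 and 1 of 19, and interferon-stimulated genes 1 and 0 of 18. Markers of epidermal gamma delta T cells gave 4 and 0 of 8. Of the label calls in untreated cells, 6 were higher and 13 lower here too, or 6.19% and 12.3% of those lists. Another 10 went from higher to lower and 14 from lower to higher, Cd2 and Lck among the latter.

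Most other genes named by size in the label comparison with imiquimod came from single cells. Gzmc had 84.1% of its UMIs in 1 of the labelled-null cells, Elovl6 92.2%, Xcl1 63.6% and Ccl21a 100%. On the side of the control library 1 cell held 92.9% of Cst6, 53.2% of Cxcl2, 83.3% of Igfbp4, 83.3% of H2-Aa, 97.1% of Fabp4 and 100% of Fbln5 UMIs. Without cells that had 5 or more class II UMIs, 13 of the 24 named calls remained, and 6 of the 26 control imiquimod cells were left out by it.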

How the data were processed

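Single-cell 3′ RNA of FACS-sorted back skin cells was analysed in 4 libraries, 1 per group. The deposited matrix holds UMI counts per gene and barcode, not normalized, made with Cell Ranger 2.1.0 on mm10 and combined by its aggregation step, per the submitters' processing notes and the labels. Whether that step thinned reads, and the annotation release, are not given in the sources used here. Barcode suffixes assigned cells to libraries. The rule for members and all gene lists were chosen with earlier results of these data known. UMI sums per library and class were fitted with edgeR 4.0.16 in R 4.3.3 (library and class as terms, low genes filtered, Benjamini-Hochberg adjustment), and DESeq2 1.42.0 was an alternative. Between libraries, ratios of CPM had exact conditional 95% intervals, and a fold against 0 was bounded at 3 counts. Between libraries, genes were named by the 6 largest called ratios in each direction among calls above the level of non-leukocyte barcodes. For the class test they were named by the 12 largest folds each way among calls of the same sign in 4 of 4 libraries, without that filter. Further genes came from fixed lists, and others were chosen after their values were seen. Doublets were scored with Scrublet in scanpy 1.11.5 and kept. The automatic Scrublet threshold marked 6 of 5292 barcodes in 1 library, so the top 2% of scores was used as the alternative, chosen after seeing the data. Cells were thinned with a fixed seed, and the tests were checked on simulated data. Some genes are not reported here.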

Additional observations from a re-analysis of the deposited data

Results flagged for a closer look

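Of 158 genes called higher with imiquimod in control cells, 4 were called lower in labelled-null cells. Of 180 called lower in control cells, 12 were called higher in labelled-null cells. In 5 of these genes with opposite calls, levels were above those of non-leukocyte barcodes. The difference between the labels was not tested, since each group is 1 library. Nkg7 had a ratio of 2.31 (1.70 to 3.23) in labelled-null cells and went from 63 UMIs to 0 in control cells, at least 6.28-fold lower. Ctla2b had a ratio of 8.18 (3.11 to 30.5) in labelled-null cells and went from 23 UMIs to 0 in control cells, at least 2.29-fold lower. Tnfsf11, which encodes RANKL, was at least 2.7-fold higher in labelled-null cells, from 0 UMIs, and went from 20 UMIs to 0 in control cells, at least 1.99-fold lower. Gm8186 had a ratio of 0.447 in labelled-null and 2.23 in control cells, and Nrd1 one of 0.478 in labelled-null and 2.34 in control cells.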

How the results depend on the processing

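Between treatment and genotype groups no paired analysis was possible because each group holds 1 library, while the class comparison paired type 17 and other T cells of the same library. The class comparison called 193 genes as reported, 89 with 1 UMI enough for membership, 85 without cells of 2% or more fibroblast and keratinocyte UMIs (chosen after seeing the data), 707 without a filter on low counts, 116 with thinned cells, and 20 to 248 with 1 library left out. DESeq2 called 196, of which 150 were shared. With 1 UMI enough, the share of T cells was 37.8% in control untreated and 75.3% in labelled-null imiquimod skin. The counts of the 4 comparisons between libraries stayed within 1.5 times of those reported under every alternative run. TMM scaling kept 51 of 52, 61 of 64, 23 of 24 and 31 of 31 named calls for imiquimod in control, imiquimod in labelled-null, label in imiquimod and label in untreated cells. Without cells of 5 or more class II UMIs (also chosen after seeing the data) 39, 62, 13 and 29 remained, and the log2 ratio turned for H2-Aa in control imiquimod over untreated (-0.086), for Ccl21a in labelled-null imiquimod over untreated (-3.39) and over control imiquimod (-3.95), and in the last comparison for Igfbp4 (0.14), Fabp4 (2.28) and Fbln5 (1.01, and 1.27 without doublet calls). These genes rest on 1 or 2 cells. The 26 control imiquimod cells, with 99743 UMIs, limit both comparisons that use them.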
